A study of Homo sapiens with 4 samples.

Results

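The pre-B receptor and recombination genes are 9 genes: VPREB1, IGLL1, CD79A, CD79B, CD22, MS4A1, RAG1, RAG2 and DNTT. Most of them serve a B-cell precursor in building and testing its first antigen receptor, whereas MS4A1 belongs to later B cells. All 9 were chosen by name, as the rows of the deposited expression table that carry these symbols. Of the 9 genes, 8 had a row among the 29833 genes of the table, and 7 of these had a mean level of at least 1 FPKM (fragments per kilobase of transcript and library size), the minimum used for the 12750 genes compared throughout. MS4A1 was below that minimum, and the level of VPREB1 was not analysed here.

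Reh-6-MPR cells were measured by poly(A) RNA-seq in 4 libraries, 1 per treatment. Reh is an established human line of B-cell precursor acute lymphoblastic leukemia (B-ALL), and Reh-6-MPR was derived from it by stepwise exposure to 6-mercaptopurine (6-MP), a thiopurine used in maintenance therapy. All 4 libraries therefore come from 1 selected line, and the parental line is not part of the comparison. Treatment lasted 48 h in each case. The vehicle cells received PBS, the histidine cells 4 mM histidine, the 6-MP cells 1.0 μg/mL 6-MP, and the cells of the combined treatment both agents at these doses. The study asked what histidine adds to 6-MP in these resistant cells, so the combined library was set against each of the other 3. Without replicates no test of a treatment was possible, and intervals given below are exact 95% intervals of counting error on the reads, which compare libraries and not treatments.

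In a developing B cell, the RAG1 and RAG2 proteins cut the immunoglobulin genes at recombination signals, and terminal deoxynucleotidyl transferase (DNTT) adds nucleotides at the opened ends before repair joins them. A successful heavy chain then pairs with the surrogate light chain, made of the VPREB1 and IGLL1 proteins, and with the signalling chains CD79A and CD79B, to form the pre-B receptor. CD22 is an inhibitory co-receptor of this pathway, and MS4A1 (CD20) appears later, as cells leave the precursor stage. B-ALL cells are arrested near the stage at which these genes are active.

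The RefSeq starts of RAG1 and RAG2 differ widely in sequence. They are shown because these genes lie side by side on chromosome 11 and differed from vehicle in opposite directions in the combined library. RefSeq windows on GRCh38.p14, from 250 bases before to 50 bases after each start, were found for 7 of the 9 genes, namely VPREB1 and all others except CD79B and MS4A1. Only the stretch before the start that no GENCODE 29 exon covers is printed. For RAG1 it is chr11:36510273-36510352 on the plus strand and for RAG2 chr11:36598280-36598486 on the minus strand, read 5′ to 3′, with each CG dinucleotide in capitals.
RAG1: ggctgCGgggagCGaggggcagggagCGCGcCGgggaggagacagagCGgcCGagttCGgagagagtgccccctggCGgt
RAG2: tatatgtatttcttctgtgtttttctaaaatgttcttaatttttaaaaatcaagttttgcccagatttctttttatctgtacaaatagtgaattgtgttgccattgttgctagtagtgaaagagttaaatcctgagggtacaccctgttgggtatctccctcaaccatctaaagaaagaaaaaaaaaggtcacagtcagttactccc

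The RAG1 window of 300 bases held 32 CG dinucleotides at a GC content of 72.3%, and the RAG2 window held 0 at 36.7%. Over the 35116 windows of this length the median was 14 CG dinucleotides and 58.7% GC, and 96.0% of them held at least 1 CG. RAG1 was thus at percentile 84.9 of all windows for GC content and RAG2 at percentile 6.11. Of the 250 bases before the RAG1 start, 170 lie under the first exon of TRAF6, a neighbouring gene on the other strand. The RAG1 window ends at 36510402, before the RAG1 gene as counted for the levels, which begins at 36510709. Whether the RAG1 RNA measured here starts at this RefSeq start was not tested.

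DNTT and CD79A are shown as a second pair, because DNTT was lower and CD79A higher in the combined library. The stretch for DNTT is chr10:96304184-96304395 and that for CD79A is chr19:41877029-41877119, both on the plus strand of GRCh38.p14, with each E-box (CANNTG, which reads the same on both strands) in capitals.
DNTT: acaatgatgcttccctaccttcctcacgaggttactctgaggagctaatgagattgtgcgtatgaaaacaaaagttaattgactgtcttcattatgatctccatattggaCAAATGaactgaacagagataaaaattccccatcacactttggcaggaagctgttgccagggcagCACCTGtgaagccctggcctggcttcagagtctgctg
CD79A: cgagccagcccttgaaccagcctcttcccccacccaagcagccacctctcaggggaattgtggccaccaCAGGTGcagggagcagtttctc

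E-box letters, the kind of motif bound by the TCF3 and TCF12 proteins, were in all 7 windows found and in 68.7% of all windows. Searched on both strands, the octamer ATTTGCAT, the TATA box TATAAA and the letters TGGGAA of an Ikaros core were in none of the 7, and in 1.77%, 11.5% and 24.0% of all windows. These are matches of letters in short windows and not measured sites. The printed stretches differ in length, with 212 bases for DNTT and 91 for CD79A, so their marked letters cannot be compared as counts. Whether the letters in any window bear on the levels was not tested.

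The levels of the 7 expressed genes kept nearly the same order in the 4 libraries (plot of levels by gene). DNTT was the most abundant, at rank 36 of all genes by mean FPKM, followed by IGLL1 at rank 79, CD79A at rank 91 and RAG1 at rank 111. RAG2 was at rank 391, CD22 at rank 1155 and CD79B at rank 1932. IGLL1 exceeded CD79A by a factor of 1.24 in vehicle (interval 1.19 to 1.29), whereas in the combined library the order turned, with a ratio of 0.955 (interval 0.917 to 0.996). CD79A and RAG1 were not separable by counting error in vehicle, at a ratio of 1.01 (interval 0.981 to 1.04), but stood at 1.64 in the combined library (interval 1.59 to 1.68). Each of the other neighbours in the order, DNTT over IGLL1, RAG1 over RAG2, RAG2 over CD22 and CD22 over CD79B, had a counting interval above 1 in every library.

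**Figure D1:**
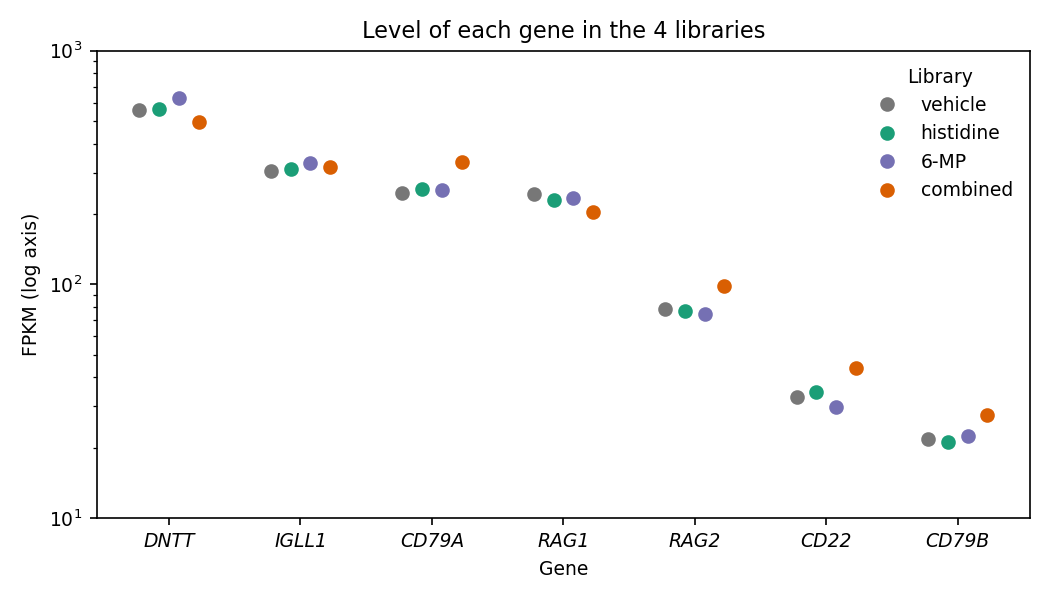
FPKM (log axis) of the 7 genes with a mean of at least 1 FPKM, 1 point per library, ordered by mean level. The combined library is the highest point for CD79A, RAG2, CD22 and CD79B and the lowest for DNTT and RAG1, and all 4 points of a gene lie close together compared with the distances between most genes.

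IGLL1, the part of the surrogate light chain that resembles a constant region, hardly differed between the libraries. Its FPKM was 304 in vehicle, 310 in histidine, 331 in 6-MP and 319 in the combined library, from 3914, 4317, 4561 and 3690 reads. The combined value lay inside the range of the other 3. On the log2(FPKM + 1) scale used for all differences, IGLL1 was 0.07 higher in the combined library than in vehicle, 0.04 higher than in histidine, and its difference from 6-MP was -0.06. In the 6-MP library it was 0.12 higher than in vehicle (interval of the log2 read ratio 0.06 to 0.18). Of its 50-base stretches of transcript, 8.24% also occur in other genes, so a share of its reads depends on how shared reads were counted.

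CD79A, one of the chains that carry the signalling motif of the receptor, was higher in the combined library. Its FPKM was 246 in vehicle, 256 in histidine, 253 in 6-MP and 333 in the combined library. The 3 other libraries lay close together, and the combined library stood apart from them by more than their whole range. The difference from vehicle was 0.44 (interval of the log2 read ratio 0.38 to 0.49), from histidine 0.38 and from 6-MP 0.39.

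CD79B, the partner chain, was also highest in the combined library, at a much lower level than CD79A. Its FPKM was 21.8, 21.2, 22.3 and 27.6 in vehicle, histidine, 6-MP and the combined library, from 644, 676, 707 and 733 reads. The combined library was again the highest, by 0.32 over vehicle (interval of the log2 read ratio 0.18 to 0.49), 0.37 over histidine and 0.29 over 6-MP. The ratio of CD79A to CD79B was 11.3 in vehicle, 12.1 in histidine, 11.3 in 6-MP and 12.1 in the combined library, with counting intervals that overlapped. A gene model on the same strand, AC127029.3, shares 288 exon bases with CD79B and 11.3% of its 50-base stretches.

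CD22, the inhibitory co-receptor, had the widest range of the expressed genes. Its FPKM was 32.8 in vehicle, 34.7 in histidine, 29.8 in 6-MP and 44.0 in the combined library. The 6-MP library was the lowest and the combined library the highest, so the largest difference, 0.55 (interval of the log2 read ratio 0.49 to 0.64), was between those 2 libraries. Against vehicle the combined library was 0.41 higher (interval 0.35 to 0.49) and against histidine 0.34 higher. Alone, 6-MP went with a CD22 difference of -0.14 from vehicle (interval -0.22 to -0.07) and histidine with one of 0.08 (interval 0.01 to 0.15).

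MS4A1, the CD20 gene of later B cells, had 0 reads in the vehicle, histidine and 6-MP libraries and 7 reads in the combined library, an FPKM of 0.114. A count of 0 allows up to 3 reads, which corresponds to an FPKM of 0.0439 in vehicle, 0.0406 in histidine and 0.0410 in 6-MP. Relative to depth, the 7 reads were 2.59 times this limit in vehicle, 2.80 times in histidine and 2.78 times in 6-MP. With the counting error of the 7 reads included, the exact lower limits of the log2 read ratio were 0.68, 0.79 and 0.78. At 7 reads the gene was detected near the limit of these libraries. Genes under a mean of 1 FPKM had more reads in the combined library as a whole. Relative to depth, their summed reads were 1.69 times those of vehicle, and 74.6% of them had a read, against 64.0% in vehicle.

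RAG1, the subunit of the recombinase that cuts DNA, was lower in the combined library. Its FPKM was 243 in vehicle, 229 in histidine, 234 in 6-MP and 204 in the combined library, from 27284, 27818, 28086 and 20611 reads. The difference of the combined library was -0.25 from vehicle (interval of the log2 read ratio -0.28 to -0.23), -0.17 from histidine and -0.20 from 6-MP. Histidine alone differed from vehicle by -0.08 and 6-MP alone by -0.06, so vehicle was the highest of the 4 libraries.

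RAG2, the cofactor that RAG1 needs to cut, was higher in the combined library. Its FPKM was 78.4 in vehicle, 76.6 in histidine, 74.8 in 6-MP and 98.3 in the combined library, from 3933, 4153, 4019 and 4442 reads. The first 3 libraries spanned 0.07 on the log2 scale, and the combined library was above each of them, by 0.32 over vehicle (interval of the log2 read ratio 0.26 to 0.39), 0.36 over histidine and 0.39 over 6-MP.

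The ratio of RAG1 to RAG2 is free of the scaling of a library, since both are read from the same library. It was 3.10 in vehicle (interval 2.997 to 3.205), 2.99 in histidine (interval 2.90 to 3.09), 3.12 in 6-MP (interval 3.02 to 3.23) and 2.07 in the combined library (interval 2.01 to 2.14). The first 3 intervals overlapped and the combined one lay below all of them (plot of ratios between genes). RAG1 and RAG2 lie on opposite strands of chromosome 11, at 36510709 to 36593156 and 36575574 to 36598279 in the table, and their GENCODE 29 exons overlap by 588 bases. The library kit keeps the strand, the strand setting of the counting is not given in the sources used here, and the part of this overlap in the ratio was not tested.

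**Figure D2:**
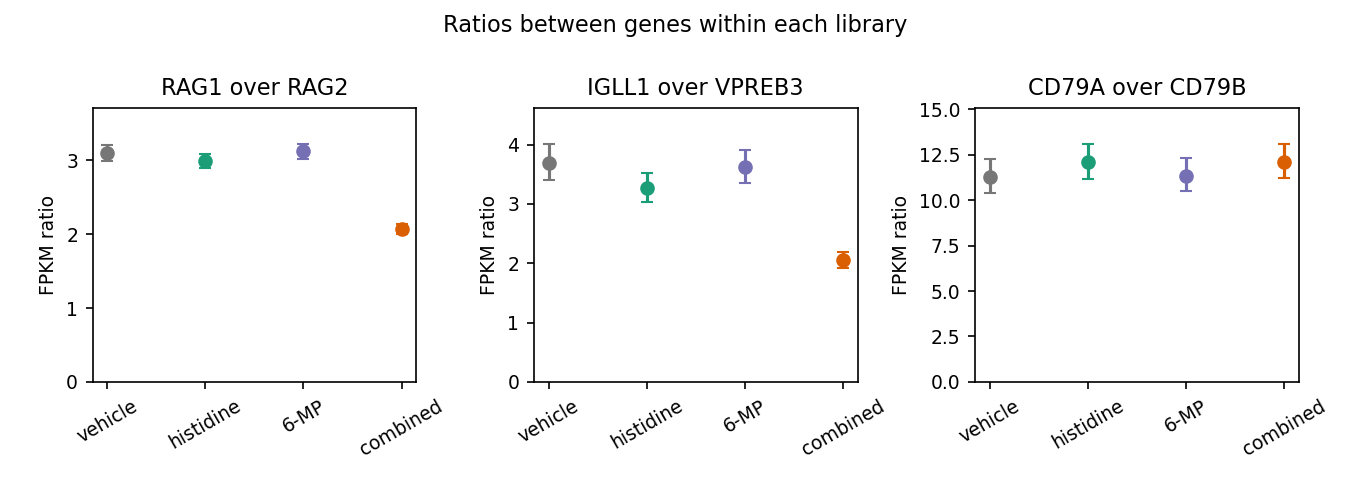
FPKM ratio of RAG1 to RAG2, IGLL1 to VPREB3 and CD79A to CD79B in each library, with bars for 95% intervals of counting error. The RAG1 to RAG2 ratio is 2.99 to 3.12 in the other libraries and 2.07 in the combined library, the IGLL1 to VPREB3 ratio drops from 3.27 or more to 2.05, and the CD79A to CD79B ratio stays between 11.3 and 12.1.

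DNTT was lowest in the combined library and highest in the 6-MP library. Its FPKM was 557 in vehicle, 563 in histidine, 625 in 6-MP and 497 in the combined library, from 15609, 17076, 18786 and 12557 reads. The combined library differed by -0.16 from vehicle (interval of the log2 read ratio -0.20 to -0.13), -0.18 from histidine and -0.33 from 6-MP. With 6-MP alone DNTT was 0.17 higher than in vehicle (interval 0.14 to 0.20), and with histidine alone the counting interval of the difference from vehicle included 0. The ratio of DNTT to RAG1 was 2.29, 2.46, 2.68 and 2.44 in vehicle, histidine, 6-MP and the combined library, with no drop in the combined library of the kind seen for RAG1 over RAG2.

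None of the 7 genes showed a log2 difference of 1 or more in any comparison. Of all 12750 genes, 6.53% did so between the combined library and vehicle, 5.55% between combined and histidine, 6.02% between combined and 6-MP, 1.33% between histidine and vehicle and 1.18% between 6-MP and vehicle. The 3 comparisons of the combined library share that library, and 3 comparisons share vehicle. The median difference from vehicle in the combined library was 0.32 over the 7 genes and 0.13 over all genes. By counting error alone, the difference from vehicle excluded 0 for 2 of the 7 genes in histidine (CD22 and RAG1), against 21.6% of all genes, and for 5 of the 7 in 6-MP (all but CD79A and CD79B), against 17.9%. In the histidine library the medians were 0.02 and 0.01, and in the 6-MP library 0.03 and 0.0039. Counting intervals narrow with more reads, and the 7 genes were at percentiles 84.9 (CD79B) to 99.7 (DNTT) of the tested genes by mean level. The shares of all genes by counting interval were not matched for level.

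The combined library was above each of the other 3 for 4 of the 7 genes (CD79A, CD79B, CD22 and RAG2), against 53.8% of all genes tested, and below each of them for RAG1 and DNTT, against 28.8%. For the same 4 genes the counting intervals were above 0 in all 3 comparisons, as for 34.2% of all genes, and for RAG1 and DNTT below 0, as for 16.6%. The 4 higher genes also exceeded the other 3 libraries by more than the range of those libraries, as did 37.1% of all genes, and of the 2 lower genes RAG1 lay outside by that margin, as did 19.2%. These are counts of few genes in a library that lay outside the range of the other 3 for most genes (plot of read ratios). By size, CD79A was at percentile 76.6 of all genes for its difference from vehicle, CD22 at 75.0, CD79B at 68.0, RAG2 at 67.8, IGLL1 at 42.8, DNTT at 23.0 and RAG1 at 17.0.

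**Figure D3:**
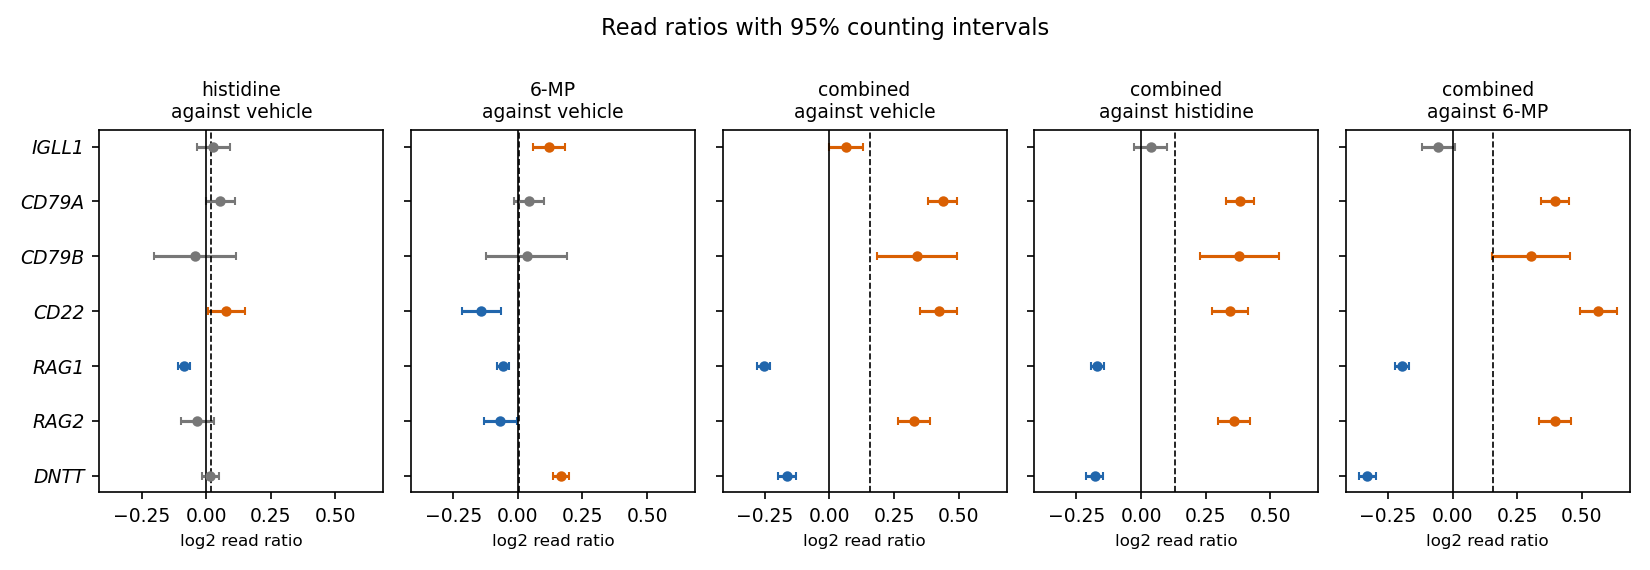
Log2 read ratio of the 7 genes in 5 comparisons, with bars for exact 95% intervals of counting error, orange where the interval lies above 0, blue where it lies below and grey where it includes 0. The dashed line is the median of all genes tested, 0.16 for combined against vehicle. CD79A, CD79B, CD22 and RAG2 lie to the right and RAG1 and DNTT to the left in each comparison of the combined library. With 6-MP alone the ratio of DNTT to vehicle is 0.17, as large as in the combined library but in the other direction, and that of IGLL1, 0.12, is larger than in the combined library.

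The scale of the combined library bears on these directions, since its typical gene was 0.13 higher than in vehicle. Relative to that median, CD79A was 0.30 higher in the combined library, CD22 0.28, CD79B 0.19 and RAG2 0.19, whereas IGLL1 differed by -0.07, DNTT by -0.30 and RAG1 by -0.39. With the libraries scaled by the median ratio of their genes, IGLL1 differed from vehicle by -0.09 and the other 6 genes kept their direction.

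The departure from additivity asks how far the combined level differs from what the separate histidine and 6-MP levels would give if their log2 differences from vehicle simply summed. It was 0.47 for CD22, 0.42 for RAG2, 0.34 for CD79A and 0.33 for CD79B, and it was -0.08 for IGLL1, -0.11 for RAG1 and -0.35 for DNTT. None of the 7 genes reached 1 in size, as 6.76% of all genes did, and the median of all genes was 0.11. Scaled by the median ratio, the departure was 0.35 for CD22, 0.30 for RAG2, 0.22 for CD79A, 0.21 for CD79B, -0.21 for IGLL1, -0.23 for RAG1 and -0.47 for DNTT. By counting intervals, 6-MP was below vehicle and the combined library above it for CD22 and RAG2, and the reverse held for DNTT.

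A list of 7 other receptor chain genes holds VPREB3 and the mu heavy chain, which belong to the precursor stage, and conventional light chain genes, which do not form part of the pre-B receptor. Of the 7, 3 had a row, and all 3 passed the minimum mean. VPREB3, which binds heavy chains inside the cell before they pair, had an FPKM of 82.4 in vehicle, 94.98 in histidine, 91.4 in 6-MP and 155 in the combined library, a difference of 0.91 from vehicle. The ratio of IGLL1 to VPREB3 was 3.69 (interval 3.40 to 4.02) in vehicle, 3.27 in histidine, 3.62 in 6-MP and 2.05 (interval 1.92 to 2.19) in the combined library. IGHM, the mu heavy chain constant gene, had an FPKM of 8.81, 8.56, 6.97 and 14.2, and was 0.63 higher in the combined library than in vehicle. IGLC3, a constant gene of the conventional lambda light chain, had 0 reads in vehicle and histidine, 1 in 6-MP and 55 in the combined library. Relative to depth, its 55 reads were 20.3 times the 3-read limit of vehicle. It reached the minimum mean of 1 FPKM only through the combined library, so a large difference was bound to follow from the filter. Without it the median of the list was 0.77, from VPREB3 and IGHM. The exact lower limit of its log2 read ratio to vehicle was 4.00. Lambda constant genes are near-identical copies, so the split of such reads between them is uncertain.

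Receptor signalling genes were expressed throughout and showed no common direction. All 18 listed were tested, and none differed by 1 or more between the combined library and vehicle. Of these, 17 averaged at least 1 FPKM in the other 3 libraries as well. Their median difference was 0.14, against 0.12 for the 12305 genes that did so, and the counting interval of the read ratio was above 0 for 9 of the 17 and below 0 for 3, against 41.6% and 21.5%. PRKCB, a kinase downstream of calcium, was 0.62 higher in the combined library than in vehicle, and LYN, the kinase that phosphorylates the CD79 and CD22 tails, was 0.61 higher.

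Of 10 genes listed for inhibitory receptors and inhibitory signalling, not all of which act with CD22, 9 had a row and 6 were tested. Their median difference from vehicle in the combined library was 0.39, against 0.13 for all genes. Counting intervals were above 0 for 4 of the 6 and below 0 for 1, against 42.7% and 20.8% of all genes. CD72, an inhibitory co-receptor like CD22, was the 1 gene of this list past 1, as were 5.01% of all genes in this direction, with an FPKM of 4.21 in vehicle, 5.53 in histidine, 3.24 in 6-MP and 12.8 in the combined library, a difference of 1.40. It had the same order over the libraries as CD22. LAIR1, an inhibitory receptor, was 0.89 higher, and PTPN6, the phosphatase SHP-1 that such receptors recruit, 0.43 higher. CD5 and FCGR2B were at or near 0 in all libraries.

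**Figure D4:**
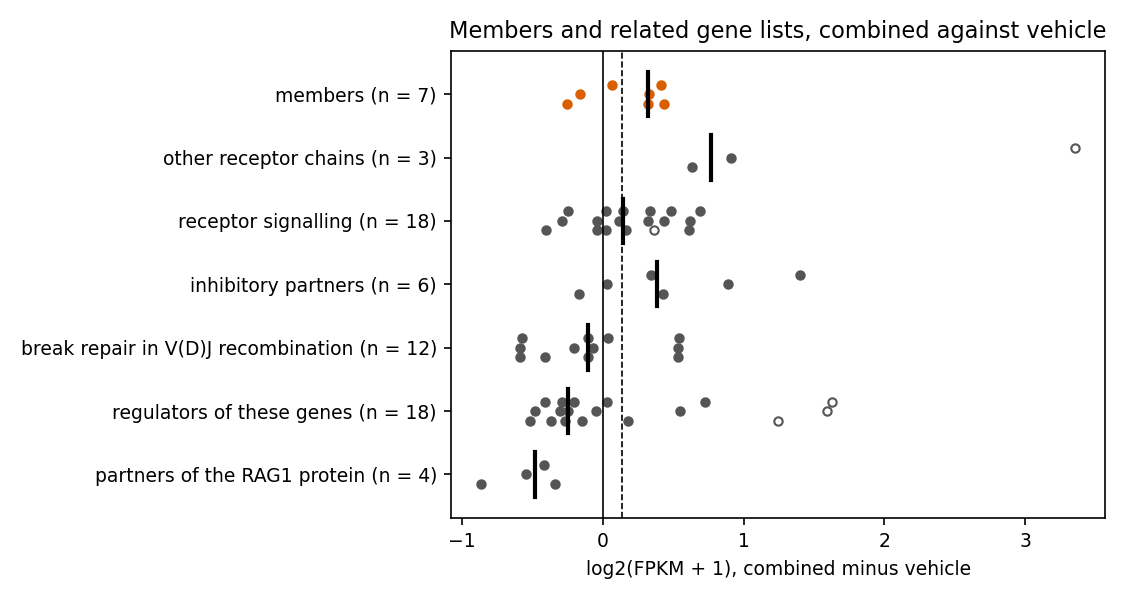
Difference in log2(FPKM + 1) between the combined library and vehicle for the 7 genes (orange) and for the tested genes of 6 related lists (grey). Open points are genes that reach a mean of 1 FPKM only through the combined library. Thick bars are medians without them, from 0.77 for the other receptor chains to -0.48 for the partners of the RAG1 protein, the solid line is 0 and the dashed line is the median of all genes, 0.13; vertical offsets within a row carry no value.

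Genes that repair the breaks made by RAG1 and RAG2, listed with HMGB1 and HMGB2, divided into higher and lower ones. Of 14 listed, all had a row and 12 were tested, with a median difference of -0.11 from vehicle, against 0.13 for all genes, and none past 1. Counting intervals were below 0 for 6 and above 0 for 3, against 20.8% and 42.7% of all genes. The abundant genes were among the lower ones: XRCC5 and XRCC6, the Ku subunits that hold broken ends, differed by -0.59 and -0.58, and HMGB1, which helps the RAG proteins bind DNA, by -0.59. XRCC6 had an FPKM of 257 in vehicle, 257 in histidine, 255 in 6-MP and 171 in the combined library, so the first 3 libraries were nearly equal. HMGB1 had 205, 202, 194 and 136. HMGB2, the most abundant gene of the list, differed less, with 418, 397, 397 and 389 FPKM and a difference of -0.10 from vehicle in the combined library. POLM, a polymerase of the same family as DNTT, was 0.54 higher, and ATM, the kinase that senses the breaks, 0.53 higher.

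The 4 listed partners of the RAG1 protein were all lower in the combined library, with a median difference of -0.48 from vehicle, against 0.13 for all genes, and every counting interval below 0, as for 20.8% of all genes. None of them reached a difference of 1. KPNA2, an importin that binds RAG1, had an FPKM of 46.3 in vehicle, 45.3 in histidine, 47.3 in 6-MP and 24.96 in the combined library, a difference of -0.87. DCAF1, the receptor subunit through which RAG1 meets a ubiquitin ligase, differed by -0.55, and DDB1 and CUL4A, the other parts of that ligase, by -0.42 and -0.34. In the histidine and 6-MP libraries the counting intervals of all 4 included 0.

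Transcription factors that act on these genes differed in both directions. Of 21 listed, 18 were tested, with a median difference of -0.18 from vehicle and counting intervals below 0 for 10 and above 0 for 6. Of the 18, 15 averaged at least 1 FPKM in the other 3 libraries as well. For these 15 the median difference from vehicle was -0.25, against 0.12 for the 12305 such genes, and counting intervals were below 0 for 10 and above 0 for 3, against 21.5% and 41.6%. The B-lineage factors PAX5, EBF1, TCF3 and IKZF1 differed by -0.37, -0.25, -0.27 and -0.48. The 3 higher ones were SPI1, an ETS factor of myeloid and B cells, at 0.72, FOXO1, which activates the RAG genes, at 0.55, and MYB at 0.18. The 3 factors left out of these counts were SPIB, POU2F2 and IRF8, each under 1 FPKM in vehicle, histidine and 6-MP and at 4.11, 4.27 and 3.05 FPKM in the combined library. They passed the minimum only through the combined library and so had to be higher there, with differences of 1.63, 1.59 and 1.24. IRF4, below the minimum, had 11 reads in vehicle and 62 in the combined library.

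By the shape of their levels over the 4 libraries, the protein-coding genes nearest to CD22 were POLE, RELT and DRAM2, at distances of 0.03 on the log2(FPKM + 1) scale after centring. The nearest to the mean pattern of the 7 genes were ELOF1, NFE2L1 and TOPBP1, at 0.01. These were the closest of 9997 genes over only 4 libraries, where many genes fit a given shape.

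The lineage of the cells was checked against marker lists. Of 16 B-cell precursor markers, which include several of the genes above, 15 had a row and 14 had a mean of at least 1 FPKM, and their summed FPKM was 2023, 2054, 2147 and 2033 in vehicle, histidine, 6-MP and the combined library. The sum is dominated by a few abundant genes, and single markers differed in both directions between vehicle and the combined library, with CD24 at 309 and 206 FPKM, MME at 27.7 and 46.9 and CD9 at 3.199 and 12.29. Mature B-cell markers summed to 9.79 to 13.0 in all libraries, and MS4A1 was among those near 0. Stem or early progenitor markers summed to 26.3, 24.7, 25.4 and 25.1 and plasma cell markers to 171, 175, 174 and 148. The lower plasma cell sum came from XBP1, at 121 FPKM in vehicle and 91.2 in the combined library, whereas SDC1 was at 1.31 and 6.44 and PRDM1 had 5 and 34 reads. Markers of T cells and myeloid cells were higher in the combined library: T-cell markers (6 of 12 with a row) summed to 14.1, 14.5, 15.3 and 37.8, mostly from TRAC, and myeloid markers (7 of 11 with a row) to 32.4, 34.5, 30.4 and 63.9, mostly from MPO and ITGAM, while CD14 and HBB were at or near 0 in every library. The depth was lowest for the combined library, at 12899122 reads against 14316493, 15486376 and 15342296 for vehicle, histidine and 6-MP. It nevertheless had reads for 25443 genes, against 23635 to 23978 in the others. The part of these differences in the levels above was not tested, and in bulk RNA fewer cells of a type and less RNA per cell cannot be told apart.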

How the data were processed

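The deposited table gives FPKM per gene for 4 libraries of Reh-6-MPR cells. The authors' processing notes name Trimmomatic, HISAT2, Cufflinks and HTSeq and the builds hg38 and GRCh38; versions, the annotation and the strand setting are not given in the sources used here. The genes and lists described here were chosen with earlier results of these data known.

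Differences were taken on log2(FPKM + 1) from the FPKM values the authors deposited, for the 12750 genes that averaged 1 FPKM or more, and a gene was counted where the difference was 1 or more in size. FPKM divides by the reads of the library, so abundant genes that change shift all others. Whole reads were recovered from the FPKM steps for 29831 of 29833 genes (tolerance 1e-06 reads), at the GENCODE length for 15753 genes and for 14078 at a length fitted so that the reads came out whole, which holds for all members except RAG2. They gave depths of 12899122 to 15486376 reads and exact Clopper-Pearson 95% intervals of read ratios, which cover counting error only. No count model was fitted to the recovered reads, because each treatment has 1 library. The recovery and the differences were tested on simulated data. In the simulation of the recovery, a smaller share of genes needed a fitted length than in these libraries. Within each list the genes with the 3 largest differences between the combined library and vehicle were to be named, and all where 5 or fewer were tested; other genes named were chosen after their values were seen. Some genes of these lists are not reported here. Software was scipy 1.17.1 and pandas 2.3.3 with numpy 2.4.6 and matplotlib 3.10.9 under Python 3.11.15, with GENCODE 29 and RefSeq windows. The alternatives were 7 settings.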

Additional observations from a re-analysis of the deposited data

How the results depend on the processing

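No gene of the group differed by the threshold in any of the 5 comparisons or in the departure from additivity. The count of 0 was also found with median-ratio scaling, TPM scaling, no minimum mean and a pseudocount of 0.1. The 3 other settings, a threshold of 1.5, a minimum mean of 5 FPKM and a restriction to protein-coding genes, could not have raised it. Scaling by the median ratio turned 3 of 42 differences: IGLL1 became -0.09 against vehicle and -0.09 against histidine in the combined library, and DNTT -0.0079 in histidine against vehicle. The same scaling lowered the combined values of the other genes, with CD79A at 0.28 and RAG2 at 0.17 above vehicle and RAG1 at -0.41. TPM scaling and the pseudocount of 0.1 turned no direction, and the 4 other settings leave each difference as it is. Leaving out genes that reach the minimum only through the combined library, chosen after seeing the data, changed the median of the regulators of these genes from -0.18 to -0.25. No paired analysis was possible because no test could be made with a single library per treatment, and leaving out replicates did not apply. Depth limits MS4A1, whose 7 reads are the whole of its signal.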

Other observations

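The RAG proteins act on the variable, diversity and joining segments of the immunoglobulin and T-cell receptor loci, and the constant genes of these loci are spliced to the joined segments. Both kinds were looked at after their values were seen. The 96 such genes in the table had 757 reads in vehicle, 805 in histidine, 727 in 6-MP and 1326 in the combined library, or 52.9, 52.0, 47.4 and 103 RPM (relative to the depth of the library). The combined library was 1.94 times vehicle (exact 95% interval of counting error 1.78 to 2.13). Genes with at least 1 read numbered 44, 39, 41 and 72, or 45.8%, 40.6%, 42.7% and 75.0%. Of all 29833 genes, 79.2%, 80.4%, 79.3% and 85.3% had a read, and of the 17083 genes under a mean of 1 FPKM, 64.0%, 65.9%, 64.1% and 74.6%. The summed reads of the latter genes, relative to depth, were 1.69 times those of vehicle in the combined library. Among the 96 genes, the 81 under that mean were at 2.89 times vehicle on the same measure. Of these 81, 38.3%, 30.9%, 33.3% and 70.4% had a read.

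By symbol, the 13 lambda light chain genes were at 3.14, 2.84, 2.48 and 10.2 RPM in the same order of libraries. IGLC3 gave 0, 0, 1 and 55 of their 45, 44, 38 and 131 reads, so it led them only in the combined library. The 33 genes of the T-cell receptor alpha and delta loci, led by TRAC, were at 13.1, 13.9, 13.2 and 36.7. The 23 heavy chain genes, led by IGHM, were at 28.0, 26.7, 25.3 and 43.3. The 10 genes with kappa light chain symbols were at 1.956, 1.68, 0.782 and 3.49, led by a gene whose symbol marks it as an orphon outside the kappa locus, and the 12 genes of the T-cell receptor gamma locus at 6.57, 6.84, 5.54 and 8.92, where the ratio of the combined library to histidine was 1.303 with an interval of 0.992 to 1.71. The 5 beta genes had 1, 0, 1 and 3 reads. Without the constant genes IGHM, IGLC3 and TRAC, the other 93 genes were at 25.01, 24.0, 22.4 and 40.5 RPM. Such segments share sequence with near-identical copies, so reads of a single segment are uncertain, and reads over a segment do not show whether it was rearranged.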
